A study of Mus musculus with 109 samples.

Results

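The acute open regions were stretches of the mouse genome where peaks of open chromatin were called in microglia at 12 h and at 24 h after lipopolysaccharide (LPS) and in no library 2 weeks after it. They were found by joining all peaks that overlapped by at least 1 bp and keeping the joined regions with a peak in at least 2 of 4 libraries at 12 h, at least 2 of 4 at 24 h and none of the 4 at 2 weeks. This left 994 of 59636 joined regions. The regions were chosen by the peak calls at 12 h, 24 h and 2 weeks, so these calls, and the scores that come with them, are given as a description and were not tested. A peak missing from a bulk library cannot be told apart between fewer cells with the site open and less opening per cell.

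ATAC-seq uses a transposase that cuts and tags DNA where it is not wrapped tightly in nucleosomes, and places with many cuts are called as peaks. Many such places are promoters and enhancers, the stretches where transcription factors bind. LPS is a bacterial cell wall component sensed through Toll-like receptor 4, and in macrophages, to which microglia are related, it opens enhancers that are bound by factors such as NF-kB, AP-1 and interferon regulatory factors. Some of these enhancers close again when the stimulus has gone, while others stay marked.

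The cells were microglia, the resident macrophages of the brain, sorted on CD45 and CD11b from wild-type mice labelled C57B/6. The mice were at steady state, or had received 2.5 mg/kg LPS by intraperitoneal injection 12 h, 24 h or 2 weeks earlier, and no Cre or floxed allele is named for these groups. Each time after LPS had 4 libraries. Untreated numbers 1 to 4 appear in the labels as S1 to S4 and again as S13 to S16, which were read here as 2 runs of the same 4 samples. The treatment protocol of the untreated libraries also names the injection, and they were placed by their steady state tag. The labels do not say whether libraries came from separate mice, so the spread between libraries may be technical. The peak lists hold no expression values, and markers of microglia or other cells were not analysed here. Gene names, motifs and sequences were not analysed at these regions either, because the positions are in build mm9 and the reference tables used here are in another build.

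The 20 lists differed widely in length. At 24 h they held 16881 to 24751 distinct peak positions. At 12 h they held 1185 to 30262, with replicate 2 the shortest. At 2 weeks replicates 2 and 3 held 25506 and 28229 positions, whereas replicates 1 and 4 held 7242 and 6315. Untreated lists held 4 to 7321 positions, and the 2 runs of number 3 had 8 and 4. Library totals ran from 4159327 to 17922219 tags, of which 0 to 5.92% lay in peaks. With the 12 h, 24 h and 2 week lists held to their 6315 highest scoring peaks where longer, a length chosen after seeing the data, 459 regions met the rule.

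Of the 11112 regions with a peak in at least 2 of 4 libraries at both 12 h and 24 h, the 994 acute regions made up 8.95% (95% exact binomial interval 8.42 to 9.49%, which covers counting error only). A further 2043 had a peak in 1 of 4 libraries at 2 weeks, and 8075 had one in at least 2 of 4 and are called lasting regions here. The same count was made for the other 2 times. Of 12664 regions present at 24 h and 2 weeks by the same rule, 1098 (8.67%) had no peak at 12 h. Of 9439 present at 12 h and 2 weeks, 394 (4.17%) had none at 24 h, where all 4 lists were long. The share missing at 2 weeks was thus close to that missing at 12 h, the other time with short lists, and nothing is read from its size.

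The count moved by over 1.5 times when some single libraries were left out. With the regions and limits kept, leaving out an acute library can only lower it and leaving out a 2 week library can only raise it. It fell to 311 and 418 without 12 h replicates 3 and 4, and to 629 and 622 without 24 h replicates 2 and 4. It rose to 1853 and 1991 without 2 week replicates 2 and 3, and the share rose to 16.7% and 17.9%. Without 12 h replicate 2 or 2 week replicates 1 and 4, the short lists, it was 974, 1117 and 1058. Leaving out 12 h replicate 1, 24 h replicate 1 and 24 h replicate 3 in turn gave 741, 864 and 729.

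**Figure D1:**
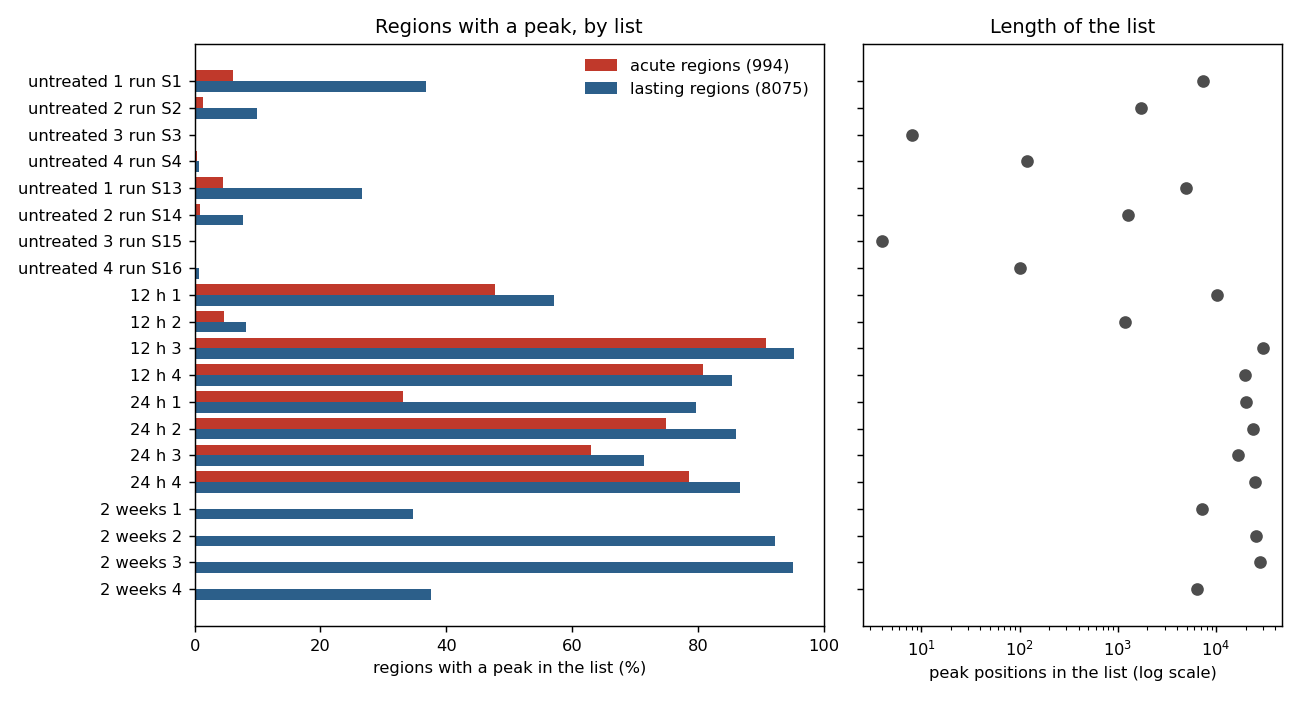
Left, the percentage of acute regions (red) and of lasting regions (blue) that held a peak in each of the 20 lists; right, the number of distinct peak positions in the list on a log axis. Acute regions hold no 2 week peak by rule; 24 h replicate 1 held 33.2% of them but 79.7% of the lasting regions.

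At each acute time taken alone, most acute regions were seen in 2 libraries, the fewest the rule allows. At 12 h, 766 of the 994 had a peak in 2 libraries, 216 in 3 and 12 in all 4. At 24 h, 566 had a peak in 2 libraries, 361 in 3 and 67 in all 4. Among all 11112 regions present at 12 h and 24 h, 2 libraries was also the most common count at 12 h. There, 2412, 2540 and 2078 regions had 2 libraries at 12 h and 2, 3 and 4 at 24 h. It was not the most common count at 24 h, where 2412, 707 and 48 regions had 2 libraries at 24 h and 2, 3 and 4 at 12 h. The 12 h support came mainly from replicates 3 and 4, which held a peak in 903 and 803 of the regions and shared 716 of them. Replicate 1 at 12 h held 475 and replicate 2 held 47. As shares of the acute regions, 12 h replicates 1 to 4 held 47.8%, 4.73%, 90.8% and 80.8%. Of all 11112 regions present at 12 h and 24 h they held 54.4%, 7.14%, 94.4% and 84.4%, so this order was not particular to acute regions. At 24 h, replicates 2, 3 and 4 held 745, 626 and 782 of the acute regions, and replicate 1 held 330. As shares, 24 h replicates 1 to 4 held 33.2%, 74.9%, 63.0% and 78.7% of the acute regions. Of all regions present at 12 h and 24 h they held 72.2%, 83.3%, 68.7% and 84.4%.

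Replicate 1 at 24 h stood apart from its group for these regions. It held 33.2% of the acute regions, against 63.0 to 78.7% in the other 24 h libraries. For the lasting regions it held 79.7%, inside the range of 71.5 to 86.7% in the others. Its list of 19998 positions was longer than that of replicate 3, and its 7629951 tags were the fewest at 24 h.

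The share of regions without a 2 week peak fell as more acute libraries held the region. Of 2412 regions in exactly 2 libraries at each acute time, 457 (18.9%) had no 2 week peak. Of 2078 regions in 2 libraries at 12 h and all 4 at 24 h, 53 (2.55%) had none. Of the 260 regions in all 8 acute libraries, 2 (0.769%) had none. Regions in 4 of the 8 acute libraries thus made up 457 of the 994 acute regions, and those in at least 7 made up 19.

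**Figure D2:**
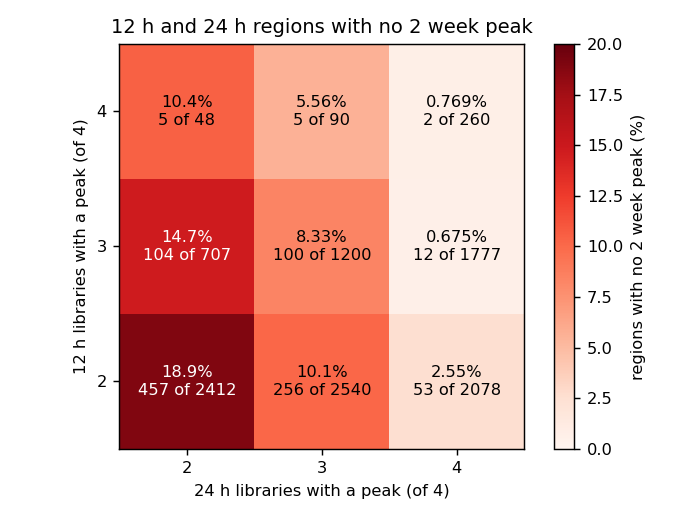
Percentage of 12 h and 24 h regions with no 2 week peak, by the number of 12 h libraries (vertical) and 24 h libraries (horizontal) that held a peak, with the counts in each cell. The share was 18.9% with 2 libraries at each time and 0.769% with all 4 at each.

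Peaks of acute regions sat lower in the score order of their own lists than peaks of lasting regions. The score is the authors' own value for a peak, and its position here runs from 0% for the lowest peak of a list to 100% for the highest. The median position of acute regions was 41.4%, 44.4%, 51.8% and 39.3% in 12 h replicates 1 to 4, and 45.5%, 48.3%, 55.0% and 51.1% in 24 h replicates 1 to 4. For lasting regions the medians ran from 48.3 to 65.3%, and in each of the 8 libraries they were above those of the acute regions. The ratio of tags in the peak to tags in the surrounding 10000 bp showed the same order in 8 of 8 libraries, with medians of 12.7 to 20.6 for acute and 16.3 to 25.4 for lasting regions.

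Acute regions were found at all heights of the score order. They included 137 whose mean position was at least 80%, and these were 6.34% of all 12 h and 24 h regions of that position. Below a position of 20%, the acute regions were 111, or 16.8% of the 12 h and 24 h regions. At the 2 week limit, all 994 acute regions had a median position of 46.0%, and the 2043 regions with 1 of 4 libraries at 2 weeks had 54.1%. At the acute limit, the 457 acute regions in 2 libraries at each acute time had a median of 41.5%. Outside it, 1686 regions with 1 of 4 libraries at 12 h, at least 2 at 24 h and none at 2 weeks had a median of 32.0%, and 742 regions with at least 2 at 12 h and 1 of 4 at 24 h had 49.7%.

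**Figure D3:**
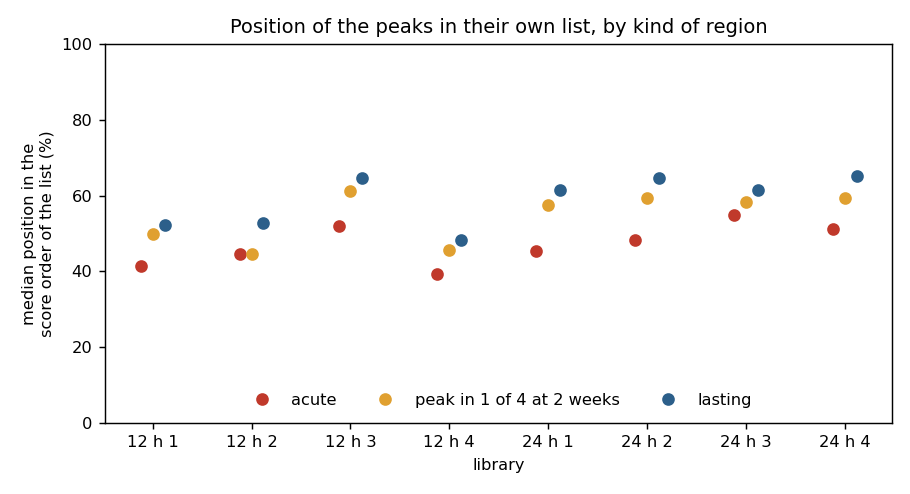
Median position of peaks within the score order of their own list (0% lowest, 100% highest) in the 8 acute libraries, for acute regions, regions with a peak in 1 of 4 libraries at 2 weeks, and lasting regions. The acute regions lie at 39.3 to 55.0% and below the lasting regions in each library.

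The middles of joined peaks spanned similar distances in acute and lasting regions, and the joining of overlapping peaks keeps them close in any region. The median width of acute regions was 137 bp (93 to 363 bp), and that of lasting regions was 154 bp (93 to 488 bp). Regions with 1 of 4 libraries at 2 weeks had a median of 145 bp. Those with none at 2 weeks and only 1 library at 12 h or at 24 h had 126 and 124 bp. Width can grow with each peak joined, and by rule lasting regions hold 2 week peaks and acute regions none, so nothing is read from the difference. The middles of the acute peaks in a region spanned a median of 41 bp, against 43 bp in lasting regions. All peaks of a list have 1 fixed width, which was 76 to 140 bp in the 12 h lists and 92 to 102 bp in the 24 h lists. Only overlapping peaks were joined, so these widths limit the span of the middles, and nothing is read from it.

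The 2 acute regions found in all 8 acute libraries lay in the lower part of the score order, below 50% in each list. At chr3:135217183-135217353 (mm9) the normalised tag count, which is tags in the peak scaled to a common library total, was 7.75, 20.9, 6.97 and 7.91 in 12 h replicates 1 to 4. It was 13.8, 9.64, 10.4 and 13.3 in 24 h replicates 1 to 4, taking the higher scoring peak where a list had 2 in a region. These peaks lay at 5.39 to 40.5% of the score order, and the region also held a peak in untreated number 1 (10.5, run S1) and number 4 (27.3, run S4). At chr5:147478161-147478311 the counts were 6.74, 20.1, 5.30 and 7.42 at 12 h and 15.1, 5.99, 5.79 and 7.45 at 24 h. Its acute peaks lay at 1.02 to 44.4% of the score order, where 44.4%, in 12 h replicate 2, was also the median of acute regions in that list. The region held a peak in untreated numbers 1 (11.6, run S1) and 2 (12.4, run S14). Tag counts are scaled to library size but not to the share of tags in peaks, so they are not compared between libraries.

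Highest in the score order among the named regions was chr7:19895538-19895745. Its normalised tag count was 47.5, 37.0, 57.7 and 64.3 in 12 h replicates 1 to 4, and 99.6, 76.5 and 79.1 in 24 h replicates 1, 2 and 4. No peak was listed in 24 h replicate 3. The peaks lay at 80.8 to 99.5% of the score order, and the untreated number 1 had a peak here as well, of 61.6 tags at 97.6% (run S1). The nearest 2 week peak was 6370.5 bp away, middle to middle. The region at chr6:140715920-140716070 was also high in the score order, at 85.9% or above in each of the 7 acute lists that held it and at 84.9% in the untreated list. It held 26.3, 34.0 and 30.7 tags in 12 h replicates 1, 3 and 4, and 52.4, 40.9, 43.6 and 31.9 in 24 h replicates 1 to 4. An untreated peak of 30.8 tags was listed in run S13 of number 1, and a 2 week peak lay 918 bp away.

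The other 6 named regions held no peak in any untreated list. At chr4:100220665-100220806 the tag count was 17.5, 15.1 and 22.8 in 12 h replicates 1, 3 and 4 and 37.4, 24.6, 20.8 and 26.5 in 24 h replicates 1 to 4. Its peaks lay at 62.4 to 83.7% of the score order, and the nearest 2 week peak was 200118 bp away, the farthest of the 10. At chr4:151470177-151470350 the count was 15.8, 18.5, 27.3 and 23.2 at 12 h and 30.8, 25.5 and 23.2 in 24 h replicates 1, 3 and 4. This region lay at 44.4 to 83.3% and 7081.5 bp from a 2 week peak.

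For 2 of these regions a 2 week peak lay beside the region without touching it. The region at chr3:60315504-60315646 had 13.3 to 41.8 tags in 7 acute libraries and a 2 week peak 126 bp away. The region at chr1:165894298-165894494 had 21.0 to 41.1 tags in 7 acute libraries and a 2 week peak 210 bp away. The last of the 10 were chr19:34520244-34520390, with 9.17 to 28.7 tags, and chr15:8047978-8048087, with 11.5 to 23.6 tags, at 37922 and 11210.5 bp from a 2 week peak.

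Just outside the rule, the 3 regions with the most acute libraries and a peak in 1 library at 2 weeks were each in all 8 acute libraries. At chr4:135476456-135476686 the 2 week peak was in replicate 2 (36.5 tags), and 4 untreated lists held 21.0 to 33.8 tags. At chr10:79379608-79379763 it was in replicate 3 (35.4 tags), and no untreated list held a peak. At chr6:146427830-146428089 it was in replicate 4 (24.3 tags), and 3 untreated lists held a peak. Of the 2043 regions with 1 such library, 997 and 859 had it in 2 week replicates 3 and 2, and 123 and 64 in replicates 1 and 4.

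Some acute regions lay close to a 2 week peak. A 2 week peak was within 200 bp of 56 regions (5.63%), within 500 bp of 109 (11.0%) and within 1000 bp of 174 (17.5%), middle to middle. The median distance was 6885.5 bp. Distances to 2 week peaks were not computed for other kinds of region, so whether these shares are high or low was not tested. A lasting region lay within 1000 bp of 39 acute regions (3.92%), and of 46 (2.25%) of the 2043 regions with 1 library at 2 weeks. Counting any 2 week peak within 500 bp of the region's edge as present left 872 acute regions.

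**Figure D4:**
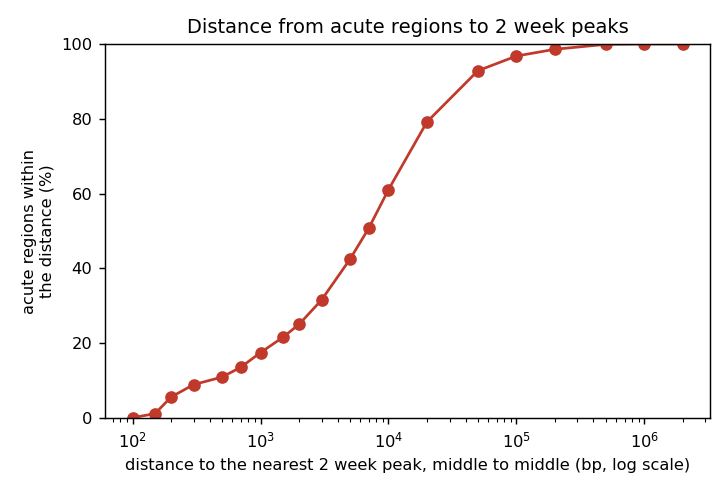
Percentage of the acute regions whose nearest 2 week peak lay within a given distance, from middle to middle, on a log axis in bp. It reaches 17.5% at 1000 bp and 61.1% at 10000 bp.

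The untreated libraries, of 4159327 to 8598043 tags, were compared to ask whether acute regions had been called open without LPS. No untreated peak counted towards the limits of the rule. Untreated peaks were joined with the others, though, so they could shift the edges of a region or link a 2 week peak to it. The comparison is thus not fully apart from the choice of regions. A peak was listed in at least 1 untreated list in 108 of the 994 acute regions (10.9%), and in 4988 of all 11112 regions present at 12 h and 24 h (44.9%). In lasting regions the count was 4237 (52.5%). The other 886 acute regions had no untreated peak. Of the 108 regions, 88 had a peak in 1 list, 18 in 2 lists and 2 in 3 lists. Most of these came from number 1, in which 96 acute regions had a peak in either run and 10 in both. Number 2 gave 19 regions, number 3 none and number 4 gave 3.

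The share was lower in the numbers with shorter lists, and acute regions were below lasting ones in each number. Averaged over runs, untreated number 1 had a peak in 5.33% of acute and 31.6% of lasting regions. Number 2 had one in 1.06% and 8.81%, number 3 in 0% and 0.0372%, and number 4 in 0.151% and 0.700%. The mean difference was -8.66 percentage points ± 12.3 (SD, n = 4), lower in 4 of 4 numbers (exact two-sided sign-flip permutation p = 0.13, the smallest that 4 numbers allow). This design cannot pass a threshold of 0.05. Number 3 adds little to the 4 of 4, because its lists of 8 and 4 positions held a peak in only 4 and 2 of the 8075 lasting regions. Without number 3 the mean difference was -11.5 points (n = 3, exact two-sided sign-flip permutation p = 0.25). Without untreated number 1 the mean difference was -2.78 points, and among regions in exactly 2 libraries at each acute time it was -4.80 points.

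Regions present at 12 h and 24 h had an untreated peak more often the more 2 week libraries held them. The share was 10.9% with no 2 week library, 31.5% with 1, 45.5% with 2, 56.1% with 3 and 71.0% with all 4. It also varied with the number of acute libraries. Lasting regions in 2 libraries at each acute time had a share of 35.7%, and those in all 4 at each had 86.5%. For acute regions it was 39 of 457 (8.53%) with 2 at each time. It was 13 of 53 (24.5%) with 2 at 12 h and 4 at 24 h, but 0 of 5 with 4 at 12 h and 2 at 24 h. The acute regions with an untreated peak had a median position of 61.5% in the score order, and the 886 without one had 43.7%. Within each of 5 equal spans of the score order the share was also lower in acute than in lasting regions. Between 20 and 40% of the score order, 6.33% of 316 acute and 35.8% of 1696 lasting regions had an untreated peak. From 80% upward the shares were 20.4% of 137 and 62.2% of 1599.

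Regions that were missing at 1 of the acute times gave a second comparison, which was chosen after the values were seen. Of the 1098 regions present at 24 h and 2 weeks and missing at 12 h, 26.3% had an untreated peak. Of the 394 present at 12 h and 2 weeks and missing at 24 h, 27.7% had one. Against the first of these sets the acute regions were different by a mean of -2.62 percentage points ± 4.18 (SD, n = 4), lower in 3 of 4 untreated numbers with number 3 equal at 0 (exact two-sided sign-flip permutation p = 0.25). Against the second the difference was -3.28 points ± 3.803 (SD, n = 4), also lower in 3 of 4 (exact two-sided permutation p = 0.25). Adjusted by Benjamini-Hochberg over these 3 comparisons, each exact permutation p was 0.25, so none passed.

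**Figure D5:**
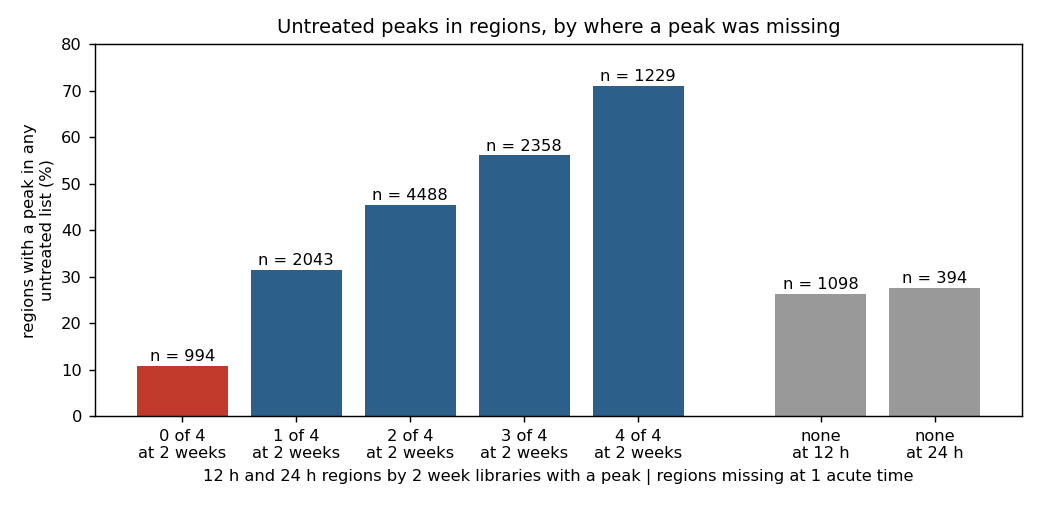
Percentage of regions with a peak in any of the 8 untreated lists. Left, regions present at 12 h and 24 h by the number of 2 week libraries with a peak, with the acute regions in red at 10.9%; right, in grey, regions with no peak at 12 h (26.3%) or at 24 h (27.7%) that were present at the other times.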

How the data were processed

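The data were 20 ATAC peak lists, 1 per library or run, in mm9 and made with HOMER, per the submitters' processing notes. Per the file headers the authors called peaks with each library as its own input, at a false discovery rate of 0.001, a fragment length of 300 bp and 4-fold over input and over 10000 bp round the peak. The score is the value that the authors' peak caller gave each peak, used as deposited. The signal is the tag count in the peak, which the authors scaled to a common library total before it was deposited. The ratio is the fold of tags in the peak over the local window, computed by the authors' peak caller and used as deposited. No source used here names the aligner. List lengths and tags per library are in the text above.

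Positions listed more than once in a list were kept once, at the highest score. Peaks of all 20 lists, untreated ones included, were joined where they overlapped by 1 bp or more, a step checked on simulated lists. The 10 named regions were those in the most acute libraries, ties ordered by mean score position, and the 3 just outside were chosen likewise; chromosome 18 was left out of both. The regions and settings were chosen with earlier results of these data known. Shares in untreated lists were averaged over the 2 runs of a number and compared by an exact sign-flip permutation test. Alternatives were the overlap, score and support limits, lists of equal length, single libraries left out, and subsets of regions. The RNA tables were not used, since genes could not be tied to mm9 positions here. Python 3.11.15, numpy 2.4.6, pandas 2.3.3 and scipy 1.17.1 were used.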

Additional observations from a re-analysis of the deposited data

Results flagged for a closer look

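At 24 h the median ratio of tags in the peak to local tags in acute regions was 17.985 in replicate 1 and 14.3 to 14.9 in the other 3 libraries, so that replicate 1 lay far from the rest of its group for its range. Peaks at 24 h were used to choose the regions, so this is a description and no test. Replicate 1 was also the highest of the 24 h libraries in lasting regions (25.4 against 21.5 to 23.2) and in regions with a peak in 1 of 4 libraries at 2 weeks (22.3 against 18.5 to 20.1).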

How the results depend on the processing

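The number of acute regions was 994 as reported. It was 787 without the lowest scoring 25% of each list, 119 when at least 3 of 4 libraries were asked for at both acute times, 80 with equal lists of 1185 peaks and 459 with equal lists of 6315 peaks, a length chosen after seeing the data. It was 0 when joining needed an overlap of 100 bp, because the peaks of several lists are shorter than that; shares could not be computed then. Leaving out 1 library gave 311 to 1991. The share with no 2 week peak, 8.95% as reported, was 9.93%, 3.58%, 20.5% and 16.5% under the same settings and 7.85% when 2 week peaks within 500 bp counted; leaving out 1 library gave 6.66 to 17.9%. The causes were not tested. The difference in untreated shares was below 0 in all 25 alternatives run, from -11.7 to -2.78 points (exact permutation p = 0.13 to 0.25). It was -9.93 and -7.39 from runs S1 to S4 and S13 to S16 alone. Among regions of a mean position under 50%, a limit added after seeing the data, it was -5.86. Leaving out 1 library or number gave -11.5 to -2.78. The mean untreated shares behind the difference were 1.63% of acute and 10.3% of lasting regions as reported. They were 5.91% and 16.2% with equal lists of 6315 peaks, and 11.9% and 19.8% with equal lists of 1185. As a proportion of the lasting share, the acute share was thus larger with equal lists. No paired analysis was possible because no test compared 2 groups of samples; the test of untreated shares compared 2 kinds of region within each untreated number. The planned results on motifs and on RNA of neighbouring genes were not run, since no mm9 genome or annotation was used here. Short untreated and 2 week lists limit what absence of a peak shows.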

Other observations

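The acute regions were spread over all 20 chromosomes with peaks. The share of 12 h and 24 h regions that were acute ran from 7.31% on chromosome 14 to 12.9% on the X chromosome, with a median of 9.20%. On the X chromosome 29 of 224 regions were acute, and X-linked positions made up 1.97 to 2.95% of the 12 h and 24 h lists and 2.02 to 2.39% of the 2 week lists. Of the 994 acute regions, 29 lay within 10000 bp of another. The median distance to the nearest was 479116 bp and the shortest 226 bp. The same distances were not computed for other kinds of region, so nothing is read from their size.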
